A study of Mus musculus with 4 samples.

Results

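The genes of the microtubule motors were described in ribosome footprint libraries of mouse dorsal root ganglia (DRG), which lie along the spinal cord and house the cell bodies of sensory neurons. They were chosen by name alone: every row of the deposited table whose symbol begins as a kinesin, kinesin light chain, kinesin-associated protein 3, cytoplasmic dynein, dynein light chain or dynactin gene, without 4 pseudogene rows of at most 0.38 CPM. This gave 70 of the 48431 genes in the table, of which 48 carry kinesin, 16 dynein and 6 dynactin names. Of these, 69 are annotated as protein coding, and the remaining one, Kif16bos, is a noncoding gene on the strand opposite to Kif16b. Kif1bp, which encodes a protein that binds KIF1 motors and is not a motor itself, also came under the rule. All 4 libraries belong to 1 group, ganglia of male wild-type (WT) SW mice given methylglyoxal (MGO), a reactive dicarbonyl that cells make from sugars, at 2 mg/kg i.p. over 6 days. That is what the treatment label says, but the treatment protocol of the same samples names saline as a control, and the conflict could not be settled. No control libraries were analysed here. The comparisons are therefore between genes within a library and between libraries, and no effect of methylglyoxal can be read from them. The age of the mice, the ganglion levels and any pooling of animals are not given in the labels.

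Motor proteins carry cargo along microtubules, and the long axons of sensory neurons depend on them. Most kinesins walk toward the plus end of the microtubule, which in axons points away from the cell body, and so carry vesicle precursors, mitochondria and cytoskeletal proteins outward. Cytoplasmic dynein walks the other way with its activator complex dynactin and brings endosomes and growth factor signals back to the cell body. Other kinesins build the mitotic spindle of dividing cells, and dynein 2 and a few kinesins serve cilia.

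Values are given in CPM, a gene's reads for each 1000000 in its library, and ratios and differences between genes are taken from CPM per kb of coding length, since a longer message holds more ribosomes at equal density. Where genes are ordered by plain CPM this is said, and such an order also reflects their length. The libraries, named replicates 1 to 4 as in the labels, held 2610537 to 3753015 reads. There were 2 pairs among them. Replicates 1 and 2, called the first pair, and replicates 3 and 4, called the second, differed by little more than sampling noise, with a chi-square per degree of freedom of 1.03 and 1.05, against 3.34 to 4.10 across the pairs. A pair therefore counts once, and errors are the SD of the 2 pair means (n = 2). Separate animals are not stated for the replicates, so this spread may be technical. Where the 2 pair means happen to lie close, this SD is smaller than the spread of the libraries. The summed level of 12 neuron marker genes was 13523 to 13738 CPM in the 4 libraries, that of 7 Schwann cell markers 21119 to 25994, that of 6 satellite glia markers 664 to 695, that of 6 fibroblast markers 21585 to 23910, that of 6 macrophage markers 467 to 527, and that of 6 spinal cord markers 74.1 to 107. Behind the neuron sum, 4 of the 12 genes were higher in the second pair without overlap and 2 in the first. Of all genes of at least 1 CPM, 48.0% did not overlap between the pairs. Most of the spinal cord sum came from Gfap at 41.2 ± 14.0 CPM and Slc1a2 at 23.8 ± 3.36, while Mobp stood at 1.74 ± 0.102. In whole ganglia, fewer cells of a type and less RNA per cell cannot be told apart.

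Kinesin genes resemble one another most in the motor domain. The stretch around its nucleotide-binding loop (the P-loop) serves as an example of whether a footprint of 28 to 34 bases can be assigned to one of them. A pattern of the P-loop was found by translating the coding sequences (GENCODE M21, GRCm38) in 32 of 41 kinesin genes. Its codons are given in capitals for the 5 kinesin genes below, 5′ to 3′ on the coding strand, each with 12 bases on either side.
Kif1b: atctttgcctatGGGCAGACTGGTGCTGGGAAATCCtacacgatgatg
Kif5a: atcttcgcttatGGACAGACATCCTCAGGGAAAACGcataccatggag
Kif5c: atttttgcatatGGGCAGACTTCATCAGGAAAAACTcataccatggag
Kif3a: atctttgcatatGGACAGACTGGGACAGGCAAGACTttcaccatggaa
Kif21a: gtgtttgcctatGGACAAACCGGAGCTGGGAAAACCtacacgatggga
The stretches begin 12 bases before codon 97 in Kif1b, codon 86 in Kif5a and Kif5c, codon 100 in Kif3a and codon 88 in Kif21a. They lie at chr4:149274955-149275002 (minus strand), chr10:127248030-127248077 (minus), chr2:49680191-49680238 (plus), chr11:53578849-53578896 (plus) and, across an intron, chr15:90997696-90997850 (minus). Of the 48 bases, 8 differed between Kif5a and Kif5c and 14 between Kif3a and Kif21a. These comparisons do not stand for all kinesins. Kif1b shared 11 windows of 28 coding bases with Kif1a, Kif3c 10 with Kif17 and Kif3a 1 with Kif3b. Over whole coding sequences, 48 of the 69 coding motor genes shared no window of 28 bases with an annotated transcript of another gene, and 11 shared more than 5% of their windows.

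Among these 11 were Dctn5 with 16.8%, the mitotic kinesins Kif11, Kif2c and Kif22 with 13.7%, 9.04% and 5.38%, and, with far larger shares, some small dynein light chains and a pair of spindle kinesins. Dynlt1a, Dynlt1b, Dynlt1c and Dynlt1f, neighbouring copies on chromosome 17 that encode the light chain Tctex-1, have coding sequences of 339 bases. That of Dynlt1c was identical to those of Dynlt1a and Dynlt1f and differed from that of Dynlt1b at a single base, C21A, counted from the first base of the start codon with the Dynlt1c base first. That base is in capitals in the first 90 bases of each, which come from chr17:6601810-6606632 and chr17:6430212-6435028 (both plus strand, introns removed).
Dynlt1c: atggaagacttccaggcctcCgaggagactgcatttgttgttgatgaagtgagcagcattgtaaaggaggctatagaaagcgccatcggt
Dynlt1b: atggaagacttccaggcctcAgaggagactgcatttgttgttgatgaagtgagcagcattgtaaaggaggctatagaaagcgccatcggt
All windows of 28 bases in Dynlt1a, Dynlt1c and Dynlt1f, 100%, occurred in another gene, and 93.3% of those in Dynlt1b. The copies were listed at 4.30 ± 2.52 CPM together, with 2.01, 3.04, 4.98 and 7.19 CPM in replicates 1 to 4. How reads with several matches were treated is not given in the sources used here, so these low values cannot be told from lost reads. Kifc1, a spindle kinesin, and its copy Kifc5b shared 76.2% and 71.6% of their windows and stood at 0.801 ± 0.215 and 0.749 ± 0.223 CPM under the same limit.

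The LC8 light chains Dynll1 and Dynll2, small dimers that dynein shares with many other protein complexes, can be told apart from each other by their letters. Their coding sequences are both 267 bases long and differed at 50 of them, in capitals below, and the longest run of identical bases was 16, shorter than a footprint. They come from chr5:115298699-115300644 and chr11:87981436-87984003 (both minus strand, introns and stop codon left out).
Dynll1: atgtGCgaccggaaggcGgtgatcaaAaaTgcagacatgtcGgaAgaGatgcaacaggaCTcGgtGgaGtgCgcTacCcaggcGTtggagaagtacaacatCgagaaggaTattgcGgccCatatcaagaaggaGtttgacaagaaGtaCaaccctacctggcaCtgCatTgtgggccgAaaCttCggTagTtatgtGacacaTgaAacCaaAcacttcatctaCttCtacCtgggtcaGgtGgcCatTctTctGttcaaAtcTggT
Dynll2: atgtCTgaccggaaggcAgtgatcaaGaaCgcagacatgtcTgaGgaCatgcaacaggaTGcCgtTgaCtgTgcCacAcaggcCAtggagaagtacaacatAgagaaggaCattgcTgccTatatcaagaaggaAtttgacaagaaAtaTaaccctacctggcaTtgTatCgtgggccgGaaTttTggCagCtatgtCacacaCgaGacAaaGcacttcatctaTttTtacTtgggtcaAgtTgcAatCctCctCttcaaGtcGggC
Dynll2 shared no window with another gene, whereas 50.4% of those of Dynll1 occurred in other genes, the most in the processed pseudogene Gm6788. The level of Dynll1 is therefore less certain than that of Dynll2.

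The motor genes were detected more often, and stood higher, than protein-coding genes in general. Of the 69 coding motor genes, 59 averaged 1 CPM or more, or 85.5%, against 63.8% of all protein-coding genes. An average of 100 CPM or more, a level not divided by length, was found for 24 of them, or 34.8%, against 6.64% of all. The median coding length of the detected motor genes was 2472 bases, against 1425 for all detected coding genes. The median of the 59 was 18.4 CPM per kb of coding length, and that of all 13820 detected coding genes was 11.2. Together the 70 genes held 1.15% ± 0.0419 of all reads, with 0.593% ± 0.00498 in kinesin genes, 0.404% ± 0.0317 in the 5 core genes of dynein 1, 0.101% ± 0.00471 in dynactin and 0.0496% ± 0.000425 in dynein light chains. Kif1a, Kif1b, Kif5a, Kif5b, Kif5c and Kif21a alone held 0.422% ± 0.00324. The 70 genes lay on 18 chromosomes.

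**Figure D1:**
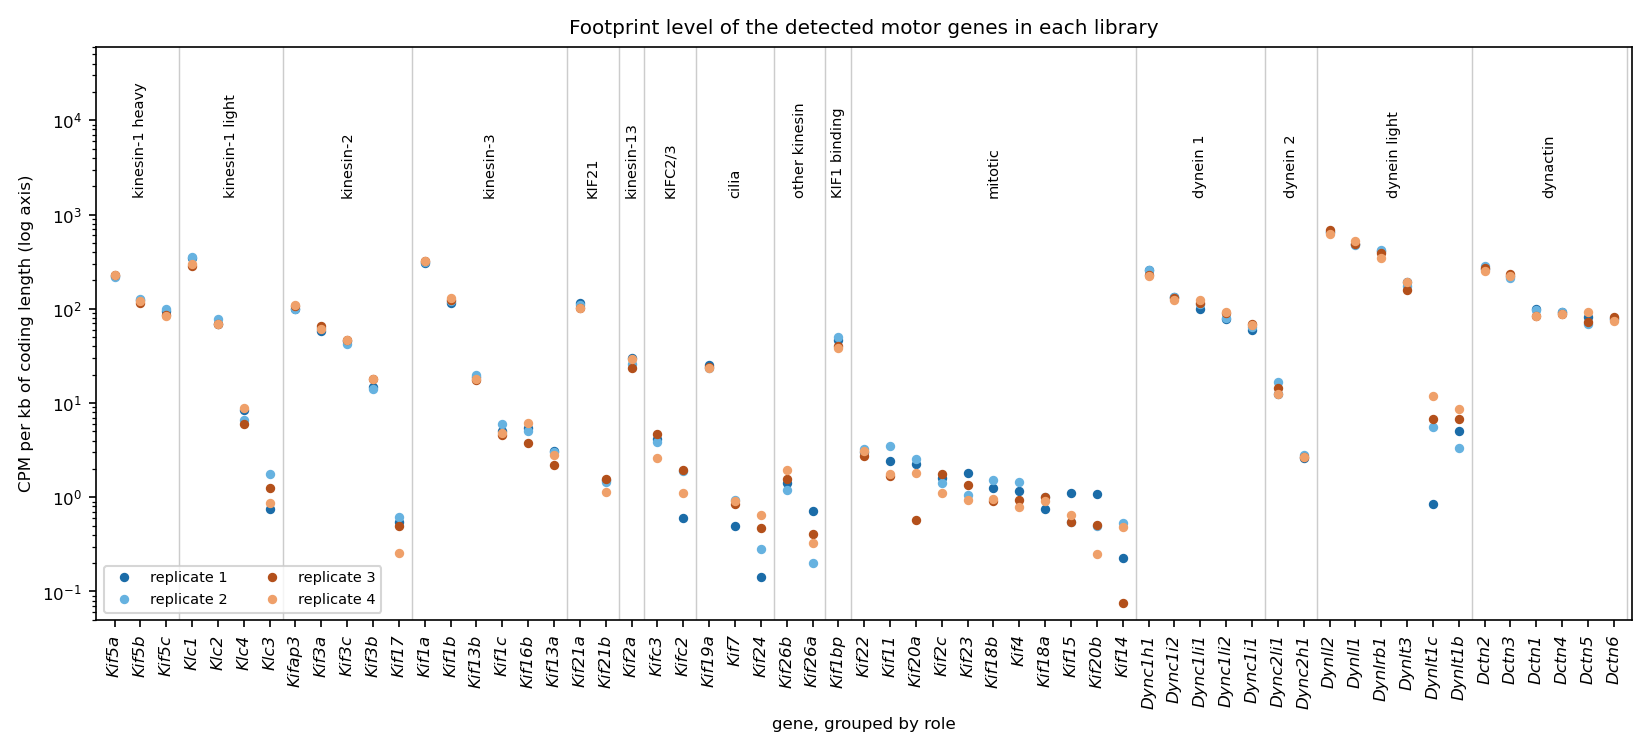
Level of the 59 detected motor genes in CPM per kb of coding length (log axis), grouped by role, with 1 point per library. Dynll2, Dynll1, Dynlrb1, Klc1, Kif1a, Dctn2, Dync1h1 and Kif5a stand highest, and the mitotic kinesins all lie between 0.328 and 3.03 as means.

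Kinesin-1, the conventional motor of fast axonal transport, was led by its neuronal heavy chain. Kif5a, a heavy chain made in neurons whose human counterpart is mutated in a hereditary spastic paraplegia (chromosome 10, 127225696 to 127263348, GRCm38), stood at 692, 674, 697 and 705 CPM in replicates 1 to 4. The ubiquitous heavy chain gene Kif5b (chromosome 18, 6201002 to 6242174) stood at 362, 364, 335 and 348 CPM. Kif5c, another neuronal heavy chain gene (chromosome 2, 49619298 to 49774778), stood at 270, 287, 248 and 243 CPM. The ranges of the 3 genes do not overlap, and Kif5a was the highest in every library. Per kb of coding length, Kif5a held 51.3% ± 2.03 of the heavy chain level, Kif5b 27.9% ± 0.627 and Kif5c 20.8% ± 1.40. On the scale of log2(CPM per kb + 1), on which all folds between genes are given, Kif5a exceeded Kif5b by 0.88 ± 0.09, a 1.83-fold difference, and Kif5c by 1.29 ± 0.15, or 2.45-fold, each in 4 of 4 libraries. Kif5b exceeded Kif5c by 0.42 ± 0.06, also in 4 of 4.

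For all 25 differences between motor genes, signs were flipped over the 4 libraries in an exact permutation test (two-sided). Its smallest possible p is 0.13, or 0.5 if each pair is 1 sample. Each difference with the same sign in 4 of 4 libraries has this p = 0.13 in the exact test, and 0.13 after Benjamini-Hochberg adjustment over the 25. No difference could therefore pass a threshold of 0.05, and the differences are given with their spread.

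The light chains of kinesin-1, which bind cargo, were dominated by Klc1. Klc1 (chromosome 12, 111758849 to 111807844) stood at 632, 651, 530 and 550 CPM, higher in the first pair than in the second. Klc2 stood at 132 ± 5.75 CPM, Klc4 at 13.8 CPM with 11.1 to 16.5 over the libraries, and Klc3, known from the testis, at 1.76 ± 0.197 from 21 reads in all. Ercc2 on the opposite strand overlaps 28.1% of the exon bases of Klc3. Per kb, Klc1 made up 80.0% ± 1.31 of the light chain level and Klc2 17.8% ± 1.12. Klc1 exceeded Klc2 4.44-fold and Klc4 38.2-fold, in 4 of 4 libraries. The log2 difference from Klc4 was 5.26 ± 0.17, and 4.43 with the length of all annotated exons in place of coding length. Summed over genes, light chains stood at 0.911 ± 0.0772 of the heavy chains per kb, where the assembled motor holds both in equal number. Kif5a lay below Klc1 per kb by a log2 difference of -0.50 ± 0.20 in 4 of 4 libraries, which turned to 0.23 without division by length.

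Kinesin-3 motors, which carry synaptic vesicle precursors, dense core vesicles and other organelles, held the highest kinesin gene by CPM. Per kb, Klc1 at 320 ± 38.9 and Kif1a at 318 ± 10.6 differed by less than their spread. Kif1a (chromosome 1, 93015464 to 93101951), the neuronal carrier of these vesicles, stood at 1638, 1694, 1746 and 1747 CPM and ranked as gene 36 of the detected coding genes by CPM. The second pair was higher than the first. Kif1b (chromosome 4, 149176319 to 149307693), whose products carry mitochondria and vesicles, stood at 622, 656, 683 and 704 CPM, again higher in the second pair. Kif1a exceeded Kif1b 2.59-fold and Kif5a 1.41-fold per kb, in 4 of 4 libraries, and made up 71.4% ± 0.359 of the KIF1 level. The log2 difference from Kif1b was 1.37 ± 0.04, and 2.24 with exon length, and that from Kif5a was 0.50 ± 0.02, and 1.30 without division by length. Kif1c, a more widely used relative that moves integrins and vesicles, stood at 17.0 ± 1.92 CPM, or 1.15% ± 0.172 of the KIF1 level. Kif13b stood at 102 ± 5.96 CPM and Kif13a, which carries endosomes, at 14.5 ± 2.07, a 5.17-fold difference per kb in 4 of 4 libraries. The log2 difference, Kif13a minus Kif13b, was -2.37 ± 0.08, and came to -1.67 with exon length and -1.59 with a pseudocount of 5. Kif16b, an early endosome motor, stood at 21.1 ± 0.693 CPM. Kif1bp was at 81.6 ± 11.97 CPM.

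The 4 kinesin-2 genes whose products form a heterotrimer were all detected. This motor pairs KIF3A with KIF3B or KIF3C and adds the adaptor KAP3, the product of Kifap3. Kif3a stood at 125, 135, 143 and 133 CPM, Kif3c at 110, 99.9, 111 and 111, and Kif3b at 33.5, 31.9, 39.8 and 40.0. Kif3b was the lowest in every library, and Kif3c, a form enriched in neurons, lay between. Per kb, Kif3c stood at 0.733 of Kif3a, with 0.673 to 0.796 over the libraries, and Kif3b at 0.262 ± 0.0253. The partners together came to 0.995 ± 0.0232 of Kif3a. With exon length the log2 difference of Kif3a from Kif3c was 1.31 in place of 0.44. That sum was chosen after the values were seen. Kifap3 stood at 235, 238, 257 and 262 CPM, or 1.69 ± 0.0419 of Kif3a per kb. Exons of a noncoding gene on the opposite strand, 1110002L01Rik, overlap 35.3% of the exon bases of Kif3c, and whether reads were counted by strand is not stated. The remaining kinesin-2 gene, Kif17, a dendritic and ciliary motor that runs as a homodimer, stood at 1.49 ± 0.455 CPM.

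The other nonmitotic kinesins covered a wide range of levels. Kif21a, which restrains microtubule growth in axons and whose human counterpart is mutated in an eye movement disorder (chromosome 15, 90933276 to 91049948), stood at 575, 549, 508 and 511 CPM. Its neuronal paralog Kif21b stood at 6.98 ± 0.499, lower per kb in 4 of 4 libraries. The levels per kb were 107 and 1.42, and as Kif21b is near the pseudocount, the log2 difference of 5.48 ± 0.04 went to 6.14 with a pseudocount of 0.1 and to 4.12 with one of 5. It was 6.08 without division by length. Kif2a, which takes microtubules apart and limits axon branching, stood at 60.6 ± 2.49 CPM. Its mitotic relative Kif2c stood at 3.18 CPM from 39 reads, with 2.40 to 3.83 over the libraries. The minus-end directed Kifc3 and Kifc2 stood at 9.43 ± 0.681 and 3.31 ± 0.450 CPM. Kif26b and Kif26a, kinesins thought to lack motor activity, were at 9.67 ± 2.03 and 2.33 ± 0.350 CPM. Kif12, Kif2b, Dynlt1f and Kif16bos had 0 reads in all 4 libraries. By counting error alone, 0 reads allow up to 0.799 to 1.15 CPM in a single library and up to 0.2955 CPM over all 4 (95% limit).

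Of the 6 kinesin genes listed under cilia, which leave out the kinesin-2 genes above, all but Kif19a were low. Kif19a, a kinesin that in mice trims the length of motile cilia (chromosome 11, 114765388 to 114790739), stood at 76.6, 70.2, 71.2 and 69.5 CPM, or 24.04 ± 0.709 per kb. It shared no window of 28 bases with another gene, and no annotated exon of another gene overlaps its own. Kif7, a regulator of hedgehog signalling, stood at 3.25 ± 0.486 CPM and Kif24 at 1.57 ± 1.01, while Kif9, Kif6 and Kif27 had 9, 5 and 4 reads over all libraries. Of 6 markers of ciliated cells, 3 were detected, led by Cfap43 at 8.28 ± 0.120 CPM, and their summed level was 13.2 to 17.8 CPM in the 4 libraries. Foxj1, which defines cells with motile cilia, stood at 0.606 ± 0.0203 CPM, under the minimum of 1. Axonemal dynein genes, which power motile cilia, were detected for 12 of 20, with a median of 0.255 CPM per kb. By CPM, Dnah8 at 24.02 ± 2.15 and Dnaic2 at 11.5 ± 1.12 stood highest among them and Dnah7a lowest of those detected at 1.25 ± 0.118. Per kb, Dnal4 at 12.01, Dnal1 at 6.67 and Dnaic2 at 6.14 stood above Dnah8 at 1.69.

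Cytoplasmic dynein 1 was led by its heavy chain, the largest subunit and the one that holds the motor. Dync1h1 (chromosome 12, 110601452 to 110666945) stood at 3607, 3612, 3166 and 3078 CPM from 41909 reads, more than any other motor gene by CPM, and ranked as gene 13 of the detected coding genes by CPM. The message is long, 13932 coding bases, and per kb its level was 242 ± 24.8, gene 329 of the detected coding genes. The second pair was lower than the first. Per kb, Dync1h1 and Kif5a differed by 0.10 ± 0.18 on the log2 scale, less than the spread, with Dync1h1 higher in 3 of 4 libraries (exact sign-flip test, p = 0.375). The difference was -0.02 in the second pair alone. It depends on the length used, being 1.11 ± 0.18 with exon length and 2.28 ± 0.18 without division by length, higher for Dync1h1 in 4 of 4 libraries under both.

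The intermediate and light intermediate chains, which link the heavy chain to dynactin and to cargo adaptors, lay below the heavy chain one by one. The log2 difference of Dync1h1 was 0.89 ± 0.10 from Dync1i2 and 1.49 ± 0.30 from Dync1li2, and with exon length it came to 2.80 and 3.30, without division by length to 3.75 and 4.73. Dync1i2, the widely used intermediate chain gene, stood at 254, 254, 246 and 239 CPM. Dync1i1, the neuronal one, stood at 114, 124, 133 and 130 CPM. Per kb, Dync1i2 made up 66.7% ± 2.36 of the intermediate chain level, and it exceeded Dync1i1 in 4 of 4 libraries. With the length of all annotated exons in place of coding length the log2 difference, Dync1i1 minus Dync1i2, turned from -0.995 ± 0.152 to 0.22. Dync1li1 stood at 157, 174, 179 and 192 CPM and Dync1li2 at 115, 117, 134 and 137, with Dync1li1 1.31-fold higher per kb in 4 of 4 libraries, a log2 difference of 0.39 that came to 1.09 with exon length. Summed over both paralogs, intermediate chains stood at 0.810 ± 0.0846 and light intermediate chains at 0.825 ± 0.159 of Dync1h1 per kb. The assembled motor holds heavy, intermediate and light intermediate chains in equal number.

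Of the 6 detected light chains, Dynll2, Dynll1 and Dynlrb1 stood above the heavy chain per kb, and Dynlt3 and the Dynlt1 copies below it. Dynll2 stood at 174, 172, 185 and 168 CPM, which over 267 coding bases is 655 ± 7.84 CPM per kb, the highest level of all motor genes on that scale. Dynll1 stood at 130, 128, 129 and 140 CPM, or 493 ± 15.3 per kb. Dynll2 thus stood at 2.73 ± 0.311 and Dynll1 at 2.06 ± 0.275 of Dync1h1. The roadblock light chain gene Dynlrb1 stood at 122 ± 10.8 CPM, 1.62 ± 0.0223 of Dync1h1 per kb, whereas Dynlrb2 had 4 reads in all. Dynlt3, a relative of Tctex-1, stood at 62.2 ± 1.88 CPM, 0.743 ± 0.0547 of Dync1h1 per kb. Levels per kb of messages this short depend most on the reads near the start and stop codons, whose positions were not examined.

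Dynactin genes were detected in full. Dctn1, which encodes p150Glued, the subunit that grips microtubules and dynein and is mutated in a human motor neuron disease (chromosome 6, 83165920 to 83200117), stood at 384, 374, 322 and 326 CPM. Dctn2, which encodes dynamitin, stood at 315, 341, 328 and 302 CPM, and Dctn3, its shoulder partner, at 123, 120, 130 and 123. Per kb, Dctn2 was 2.93 ± 0.238 and Dctn3 2.45 ± 0.340 of Dctn1. Dctn4, Dctn5 and Dctn6, which form the pointed end of the complex, were at 126 ± 4.57, 42.8 ± 3.03 and 45.8 ± 0.607 CPM. Per kb they came to 0.991 ± 0.0741, 0.866 ± 0.157 and 0.861 ± 0.0840 of Dctn1. In the assembled complex dynamitin is present in more copies than p150Glued, and the pointed-end subunits in fewer. Without division by length Dctn1 exceeded Dctn2, by a log2 difference of 0.13 in place of -1.54 ± 0.12, and with exon length the difference was -0.31. Dync1h1 exceeded Dctn1 2.63-fold per kb, in 4 of 4 libraries, a log2 difference of 1.39 ± 0.01 that came to 3.26 without division by length.

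**Figure D2:**
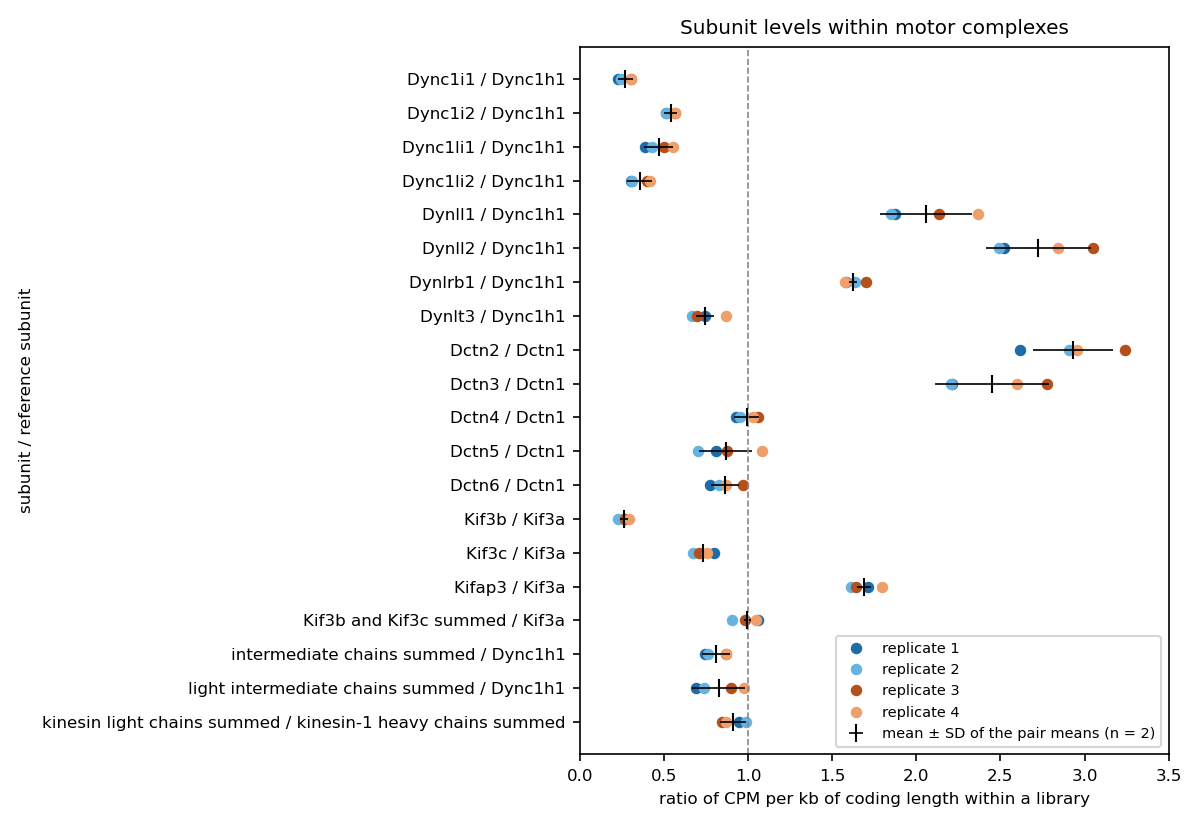
Ratio of each subunit to a reference subunit of its complex, from CPM per kb of coding length within a library, with 1 point per library and the mean ± SD of the 2 pair means in black. Summed intermediate, light intermediate and kinesin light chains lie between 0.689 and 0.984 in all libraries, and Dctn2, Dctn3, Dynll1, Dynll2, Dynlrb1 and Kifap3 lie above 1.

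Dynein 2, which works inside cilia, was far below dynein 1. Dync2h1 stood at 33.5, 36.4, 34.9 and 34.9 CPM. Over 12939 coding bases that is 2.70 per kb, with 2.59 to 2.82 over the libraries. Dync2h1 made up 1.11% ± 0.11 of the heavy chain level. Dync1h1 exceeded it by a log2 difference of 6.03 ± 0.15 in 4 of 4 libraries, which came to 4.997 with a pseudocount of 5. Dync2li1 stood at 14.8 ± 0.805 CPM.

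**Figure D3:**
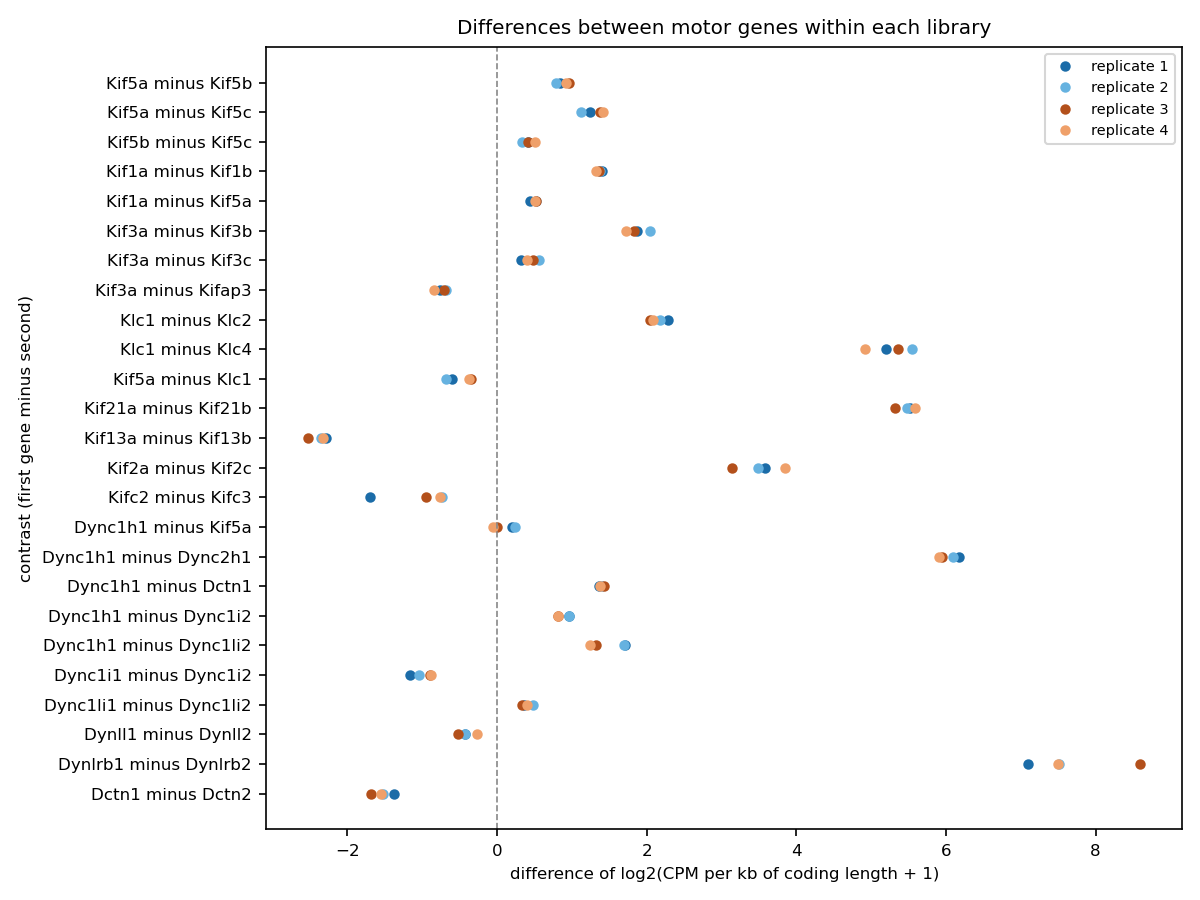
The 25 differences between motor genes on the scale of log2(CPM per kb of coding length + 1), with 1 point per library and the first-named gene minus the second. In 24 of 25 all 4 libraries lie on the same side of 0, the exception being Dync1h1 minus Kif5a.

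Kinesins of cell division stood near the lower limit. Of 13 such genes, 11 reached a mean of 1 CPM, at 1.65 to 7.43 CPM, led by CPM by the spindle motor Kif11 at 7.74, 11.01, 5.36 and 5.60 CPM and the chromosome-arm motor Kif22 at 6.02, 6.45, 5.36 and 6.13. Per kb, Kif22 at 3.03 ± 0.176 and Kif11 at 2.35 ± 0.873 differed by less than their spread. Kif20a, a cytokinesis motor, stood at 4.80 ± 2.31 CPM, with exons of Cdc23 on the opposite strand over 29.3% of its exon bases, and the chromokinesin gene Kif4 at 3.999 ± 1.14. Kif18a, which damps chromosome movements, stood at 2.44 ± 0.147. Kif14, which acts in cytokinesis, was the lowest at 1.65 ± 0.362 from 21 reads. A pseudogene, Gm15697, holds the 13.7% of Kif11 windows that occur elsewhere. The summed level of the 13 genes was 51.9, 50.9, 34.9 and 37.0 CPM in replicates 1 to 4, higher in the first pair. The transport kinesins of the kinesin-1, kinesin-2, kinesin-3 and KIF21 groups had a median per kb that was 4.66 ± 0.25 higher on the log2 scale than that of the mitotic kinesins. Of the 11 detected mitotic kinesins, 10 were higher in the first pair, 4 without overlap of the pairs and none lower without overlap, with a median difference of 0.35. All genes of at least 1 CPM lay above the second pair without overlap in 23.4% and below it in 24.6%, with a median difference of 0.004. Among the mitotic kinesins only Kif11, at 0.68 with a counting error of 0.31, and Kif20a, at 0.83 with 0.38, lay beyond 2 counting errors. Gene by gene, the others lay within 2 counting errors, and no counting error was taken for their sum. Of 10 markers of dividing cells, 9 were detected, and 8 of these were higher in the first pair. Without overlap 6 were higher there and none lower, with a summed level of 139, 144, 101 and 104 CPM. Mki67, the defining marker, stood at 39.2 ± 11.6 CPM, and Ccnb1 at 0.816 ± 0.129. Pcna went the other way, at 27.7 ± 1.34 CPM with a log2 difference of -0.095. The list includes Cenpe, itself a mitotic kinesin whose name falls outside the rule, at 4.32 ± 1.22. Muscle markers were also higher in the first pair, 7 of 7 without overlap, with summed levels of 3552, 3606, 2152 and 2159 CPM. So were macrophage markers, 5 of 6 without overlap and none lower, with summed levels of 494, 527, 467 and 472 CPM. Schwann cell markers summed higher in the second pair, at 21119, 21192, 25938 and 25994 CPM. Of these 7 genes, 3 were higher there without overlap and 2 lower. Fibroblast markers summed to 21585, 21638, 23910 and 23791 CPM, with 3 of 6 higher in the second pair without overlap and 2 lower. The part of any of these cell types in these differences was not tested.

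Between the pairs, motor genes differed by small amounts. Of the 59 detected, 32 had pairs that did not overlap, or 54.2%, against 48.0% of all detected genes, with 19 higher in the first pair and 13 in the second. With the libraries scaled to reads on nuclear protein-coding genes the split was 23 against 11. Of the 37 of at least 10 CPM, 23 did not overlap, against 52.8% of all such genes, or 62.2%, and the median size of the difference was 0.09 on the log2 scale of CPM + 1, against 0.15 for all. At 100 CPM or more the motor genes differed by -0.22 to 0.25, with a median size of 0.10 against 0.12 for protein-coding genes of that level. The sets of at least 10 CPM were not matched for level. Of the 37 motor genes, 24 reached 100 CPM, against 1439 of 8673 protein-coding genes. The smaller median and the larger share without overlap at 10 CPM can therefore not be read as traits of motor genes. At 100 CPM or more the medians lay close together. The mean chi-square of a motor gene, a measure that grows with reads, came to 0.899 for replicates 1 and 2, to 1.26 for replicates 3 and 4, and to between 5.06 and 7.70 for libraries of different pairs.

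Within dynein 1 the subunits did not move together. Dync1h1 was 1.16-fold higher in the first pair, 3610 against 3122 CPM, and Dync1i2 was also higher there. Dync1li2, at 116 against 135 CPM, Dync1li1, at 166 against 186, and Dync1i1, at 119 against 132, were higher in the second pair. The pairs did not overlap for any of these 5 genes, nor for 52.8% of all genes of at least 10 CPM. Dync1li2 stood at 0.302 and 0.307 of Dync1h1 per kb in replicates 1 and 2. In replicates 3 and 4 it stood at 0.399 and 0.419. The difference of Dync1h1 was 0.21 with a counting error of 0.01 on the log2 scale, that of Dync1li2 -0.22 with 0.07, and that of Dync1li1 -0.16 with 0.06. Dync1i1, at -0.15 with 0.07, lay at the edge of 2 counting errors. Dync1i2, at 0.07 with 0.05, differed by little more than its counting error. Among dynactin genes, Dctn1 was 1.17-fold higher in the first pair, and Dctn2, Dctn3, Dctn5 and Dctn6 overlapped between the pairs. Dctn4 was also higher in the first pair without overlap, by 0.07 with a counting error of 0.07. Of the genes with kinesin names of at least 10 CPM, Kif1bp, not itself a motor, at 1.23-fold, Kif13a at 1.21-fold and the light chain gene Klc1 at 1.19-fold were highest in the first pair relative to the second, and Kif3b at 1.21-fold stood out the other way. Kif1a, Kif1b and Kif5a, as well as Kifap3, were higher in the second pair, and Kif5b, Kif5c and Kif21a in the first. Kif5a, at -0.04 with a counting error of 0.03, and Kif13a, at 0.27 with 0.21, differed by little more than counting error.

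**Figure D4:**
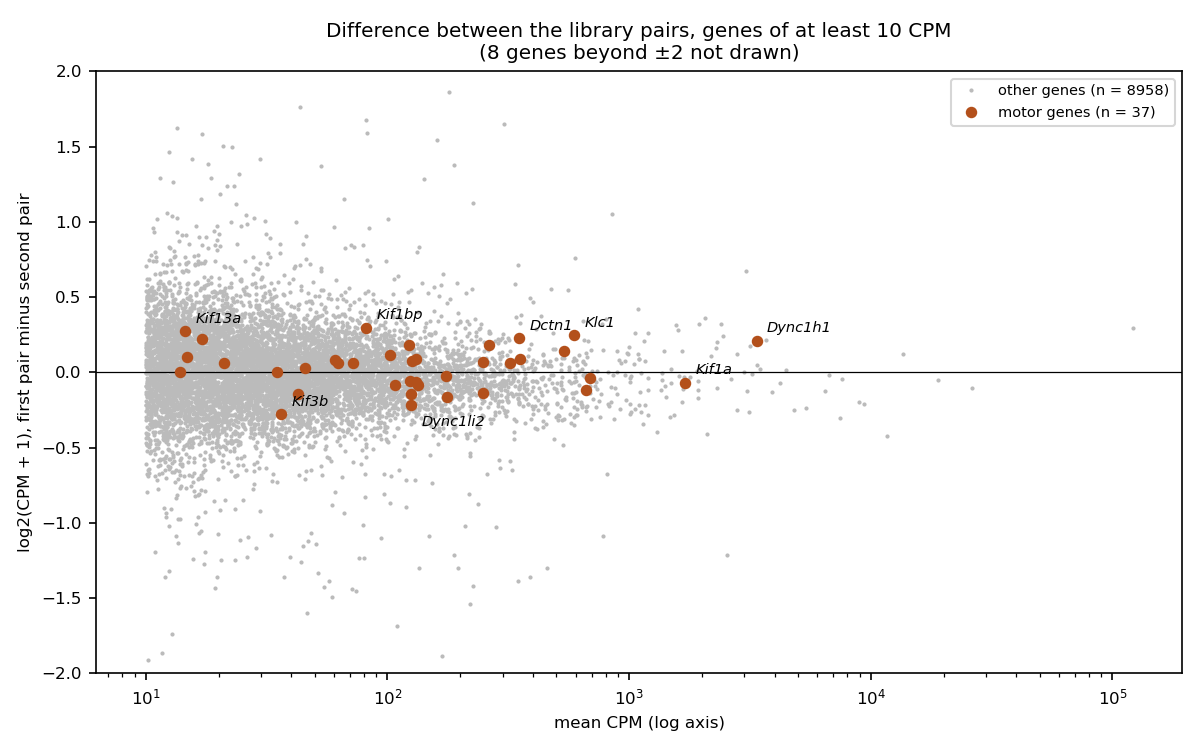
Difference between the pair means, log2(CPM + 1) of the first pair minus the second, against mean CPM (log axis), for the 37 motor genes and 8958 other genes of at least 10 CPM; 8 genes beyond ±2 are not drawn. The motor genes lie between -0.279 and 0.297, inside the range of other genes of like level.

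Partners of the motors were measured beside them. Of 19 dynein regulators and further dynactin genes in the table, 18 were detected, led by CPM by Pafah1b1, the LIS1 gene that activates dynein, at 295 ± 17.0 CPM and the capping protein gene Capzb at 175 ± 1.22. The lowest detected was Spdl1, which recruits dynein to kinetochores, at 1.76 ± 0.197. Actr1a, whose product forms the filament of dynactin, stood at 146 CPM per kb, between Dctn2 and Dctn1. All 19 cargo adaptor genes in the table were detected. By CPM, Clstn1, a cargo adaptor of kinesin-1, led at 1113 ± 71.0 CPM, followed by Mapk8ip3 (JIP3), which links kinesin-1 and dynein to cargo, at 291 ± 31.2, and Ppfia2 was the lowest at 17.2 ± 0.942. Per kb, Clstn1 led at 379, with Arl8a at 238 and Fez1 at 181 above Mapk8ip3 at 72.2. Pairs did not overlap for 9 of the 18 regulators, 8 of them higher in the first pair, and for 9 of the 19 adaptors, 4 of them higher in the first. Of all detected genes, 48.0% had pairs that did not overlap, a share near both counts, and 23.4% were higher in the first pair in this way.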

How the data were processed

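Ribosome footprints of dorsal root ganglia were measured in 4 libraries of 1 group. Spin columns served to isolate RNA bound to ribosomes, per the labels' protocols, and it was depleted of rRNA and size-selected at 28 to 34 nt on 15% gels. Per the submitters' processing notes, the tools were Cufflinks 2.2.1, TopHat2 2.1.1, FastQC 0.11.5 and Bowtie2 2.2.9, and the genome was mouse GRCm38. The deposited columns are named TPM, but the authors' values behave as CPM: with a tolerance of 0.02 steps, 96.5% to 97.0% of those above 0 were whole multiples of 1 step per library, which gave the read totals. Annotation, counting rule and strand setting were not stated there.

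Coding length is the longest annotated coding sequence of a gene in GENCODE M21, in which 48052 gene IDs were found and 379 were not. Reads were taken to lie in it, which was not checked. A gene averaging 1 CPM or more counts as detected, and log2 values use a pseudocount of 1 on CPM or CPM per kb. Folds are on that scale. Shared windows are runs of 28 bases of a coding sequence that occur on the sense strand of a transcript of another gene. Libraries were compared by chi-square for genes whose reads in both summed to 20 or more. The counting error of a difference between pairs comes from the read numbers alone. The steps were tested on simulated data. Software was matplotlib 3.10.9, scipy 1.17.1, pandas 2.3.3, numpy 2.4.6 and Python 3.11.15.

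The motor genes, role groups, marker lists and the 25 differences were chosen with earlier results of these data known. Genes named are motor genes of at least 100 CPM, the 4 highest and 2 lowest detected of each role group, those of the differences, those at 0, the 5 with the largest difference between pairs from 10 CPM, and the 2 highest and the lowest detected of each list. Of this rule, markers of neurons, glia, fibroblasts, macrophages and muscle are given only as sums or counts. Those of dividing and ciliated cells are given in part. Some items are not reported here.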

Additional observations from a re-analysis of the deposited data

Results flagged for a closer look

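In 4 of 59 detected motor genes a single library stood apart from the other 3 by most of the range. Dynll1 reached 140 CPM in replicate 4, Klc2 143 CPM in replicate 2 and Kif15 4.59 CPM in replicate 1, each above the others, and Kif3c fell to 99.9 CPM in replicate 2. For 4 independent libraries, chance flags about 1 in 20 such groups. The libraries here fall into 2 pairs, so that rate need not hold.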

How the results depend on the processing

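No paired analysis was possible because there is 1 group. Across 16 other settings, and 2 chosen after seeing the data that used 1 pair alone, 376 values were counted as unchanged. For differences between genes this means the same direction and the same side of the test threshold, which none can pass here. For counts it means a change of at most 1.5 times. For group differences it means the same direction and a shift smaller than the SD. Another 9 moved and 5 turned. Among the 376, 26 differences between genes moved by more than 1.5 times, 11 with exon length, 7 without division by length, 3 with a pseudocount of 0.1 and 5 with one of 5. The size of a difference between genes thus rests on the length used. Without division by length, Kif5a minus Klc1 turned to 0.23, Dctn1 minus Dctn2 to 0.13, and dynein 1 minus dynein 2 (3.92 ± 0.15 as the difference of medians) came to 2.89. With exon length, Dync1i1 minus Dync1i2 turned to 0.22, dynein 1 minus dynein 2 came to 2.77 and transport minus mitotic kinesins to 3.87. The latter was 5.44 and 3.24, and dynein 1 minus dynein 2 4.16 and 3.27, with pseudocounts of 0.1 and 5. With means over members, transport minus mitotic kinesins was 3.79, and dynein 1 minus dynactin turned from 0.28 ± 0.20 to -0.072. Dync1h1 minus Kif5a turned to -0.023 in the second pair alone. A minimum mean of 10 left 37 motor genes. Without 1 replicate each, 44 to 47 motor genes had pairs that did not overlap, where a lone library stands for its pair, against 73.2% to 74.7% of all detected genes. The causes were not tested beyond these changes of length, pseudocount and summary. Depth limits genes under about 1 CPM, where 0 reads and a few cannot be told apart.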
